A study of Homo sapiens with 4 samples.

Results

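Aminoacyl-tRNA synthetases are the enzymes that join each amino acid to its transfer RNA, the step that supplies the ribosome. The genes were taken from a list of 35 symbols, 19 for cytosolic and 16 for mitochondrial enzymes, and all 35 were found among the 58735 genes of the count table. FARSA and FARSB encode the subunits of the cytosolic phenylalanyl enzyme, EPRS1 carries both the glutamyl and the prolyl enzyme on 1 chain, and GARS1 and KARS1 also encode the mitochondrial glycyl and lysyl enzymes but were counted as cytosolic. The aspartyl enzymes are not on the list.

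RNA was measured in MDA-MB-231 and SUM159 cells, both human triple-negative breast cancer (TNBC) cell lines grown in culture, to ask how they respond to mebendazole (MBZ), an anthelmintic that binds tubulin. Each line received 1 μM MBZ or only the solvent DMSO for 72 h, and 1 library was made for each of the 4 conditions. MDA-MB-231 cells were grown in DMEM and SUM159 cells in Ham's F12 medium with insulin and hydrocortisone, so line and medium cannot be told apart. The libraries held 24897586 and 17143139 counts in MDA-MB-231 cells under DMSO and MBZ, and 18708179 and 18904501 in SUM159 cells. VIM and CD44, markers of mesenchymal-like cells, and EGFR, a receptor often present in TNBC, were abundant in all 4 libraries, with at least 3520 counts each, ESR1 had at most 18 counts, PGR was at 0 and ERBB2 had 1216 to 1996. The leukocyte marker PTPRC had 8 to 216 counts and was highest in SUM159 cells with DMSO, and the endothelial marker PECAM1 had 328 to 825. Their part in the results was not tested.

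Amino acid shortage leaves transfer RNAs uncharged. The kinase GCN2, encoded by EIF2AK4, senses uncharged transfer RNA and phosphorylates eIF2α, which slows most translation but favours that of the transcription factor ATF4. Together with other stress inputs to eIF2α this is the integrated stress response, and ATF4 binds promoters of amino acid synthesis genes, amino acid transporters and many cytosolic synthetases. The mitochondrial enzymes are made from separate nuclear genes, imported, and used only to translate the proteins encoded by mitochondrial DNA. Of the 19 cytosolic genes, 12 are reported in the literature to respond to ATF4 (AARS1, CARS1, EPRS1, GARS1, IARS1, LARS1, MARS1, NARS1, SARS1, TARS1, WARS1 and YARS1), and 7 were set apart as the other cytosolic genes (FARSA, FARSB, HARS1, KARS1, QARS1, RARS1 and VARS1).

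Promoters of 5 members are shown first, QARS1, called in both lines, the highest in MDA-MB-231 (WARS1 and NARS1), and the highest and lowest in SUM159 (MARS1 and PARS2). They are from RefSeq on GRCh38.p14, read 5′ to 3′ in the direction of the gene from 250 bases before to 50 bases after the annotated start. Capitals mark TGATGNAA or its reverse complement, the form of the element that ATF4 and C/EBP proteins bind, except in WARS1, where they mark AAANNGAAA, the core of an element bound by interferon regulatory factors.
NARS1, chr18:57621787-57622086, minus strand: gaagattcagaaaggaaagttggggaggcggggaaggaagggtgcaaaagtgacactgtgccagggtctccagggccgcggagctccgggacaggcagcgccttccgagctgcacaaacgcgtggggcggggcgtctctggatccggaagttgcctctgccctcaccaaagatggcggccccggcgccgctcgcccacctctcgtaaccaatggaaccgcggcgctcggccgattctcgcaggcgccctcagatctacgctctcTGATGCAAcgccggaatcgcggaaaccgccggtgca
MARS1, chr12:57487818-57488117, plus strand: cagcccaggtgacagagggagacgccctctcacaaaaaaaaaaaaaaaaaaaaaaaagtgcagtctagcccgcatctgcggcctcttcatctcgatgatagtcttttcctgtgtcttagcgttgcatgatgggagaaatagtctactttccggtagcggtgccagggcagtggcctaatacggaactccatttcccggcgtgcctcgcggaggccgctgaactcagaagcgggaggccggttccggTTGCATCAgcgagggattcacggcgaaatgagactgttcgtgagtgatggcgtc
WARS1, chr14:100375298-100375597, minus strand: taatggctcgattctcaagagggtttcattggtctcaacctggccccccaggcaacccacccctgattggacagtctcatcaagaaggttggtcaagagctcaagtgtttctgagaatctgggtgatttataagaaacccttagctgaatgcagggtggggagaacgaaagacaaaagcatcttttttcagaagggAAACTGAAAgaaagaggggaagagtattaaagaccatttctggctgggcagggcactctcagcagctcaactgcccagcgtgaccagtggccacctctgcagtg
QARS1, chr3:49104708-49105007, minus strand: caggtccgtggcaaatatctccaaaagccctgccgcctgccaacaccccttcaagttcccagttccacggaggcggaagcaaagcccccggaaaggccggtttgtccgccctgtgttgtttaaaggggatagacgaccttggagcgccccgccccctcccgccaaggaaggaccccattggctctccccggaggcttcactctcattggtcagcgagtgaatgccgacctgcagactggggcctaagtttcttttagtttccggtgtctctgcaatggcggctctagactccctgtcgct
PARS2, chr1:54764474-54764773, minus strand: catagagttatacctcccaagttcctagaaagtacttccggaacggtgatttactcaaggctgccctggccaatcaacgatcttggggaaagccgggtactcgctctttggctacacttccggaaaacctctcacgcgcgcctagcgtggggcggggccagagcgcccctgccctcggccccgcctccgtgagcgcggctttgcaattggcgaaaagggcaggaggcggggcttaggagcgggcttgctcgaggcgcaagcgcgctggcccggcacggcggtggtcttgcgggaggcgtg
NARS1 and MARS1 carry the ATF4-type letters, in NARS1 14 bases after the start and in MARS1 4 bases before it. QARS1 and PARS2 have no match to TGATGNAA, and neither of the 2 annotated starts of WARS1 has one. The AAANNGAAA search was added after the sequence of the second WARS1 start had been seen, and its match there lies 54 bases before the start.

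A promoter was found for 30 of the 35 genes, all but LARS1, VARS1, YARS1, AARS2 and VARS2, and the motif was searched on both strands. TGATGNAA was present for 8 of the 30, beside 4.46% of 27305 genes with a promoter in RefSeq. The matches fell on 7 of the 16 cytosolic genes, which were AARS1, CARS1, GARS1, IARS1, MARS1, NARS1 and TARS1, and on 1 of the 14 mitochondrial genes, YARS2. All 7 cytosolic genes with a match belong to the ATF4-responsive group, where 10 have a promoter, while none of the 6 other cytosolic genes with a promoter had one. With the fixed letter TGATGCAA, which is contained in TGATGNAA, 6 cytosolic genes matched, beside 1.08% of genes. AAANNGAAA was found for 2 members, WARS1 and EARS2, beside 12.58% of genes. A match describes letters in a window and not binding, and the counts do not say which start was used.

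Levels were compared between genes as library-normalised counts (CPM) per kilobase of the canonical GENCODE transcript, after TMM scaling, a method that sets the 2 libraries of a line to a common scale by the bulk of their genes. Cytosolic transcripts were several times as abundant as mitochondrial ones in every library. The median level was 76.4 CPM per kilobase for cytosolic and 9.13 for mitochondrial genes in MDA-MB-231 with DMSO, a ratio of 8.37, and the ratio was 7.98 with MBZ. In SUM159 the ratio was 5.27 with DMSO and 7.57 under MBZ.

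The groups overlapped. FARSB was the lowest cytosolic gene in all 4 libraries at 7.34 to 11.1 CPM per kilobase, and 7 to 10 of the 16 mitochondrial genes lay above it. Its partner FARSA stood at 71.9 to 90.2, but the canonical FARSB transcript is 6761 bases long and that of FARSA 1811, so the gap depends on which transcript is used as the length. IARS2, the mitochondrial isoleucyl enzyme, was the highest mitochondrial gene in 3 libraries, with 49.4 and 42.0 CPM per kilobase in MDA-MB-231 under DMSO and MBZ and 34.1 in SUM159 with DMSO. In SUM159 with MBZ, CARS2 at 32.7 was above IARS2 at 29.4. SARS2 was the lowest member throughout, with 47, 30, 46 and 32 counts in MDA-MB-231 DMSO, MDA-MB-231 MBZ, SUM159 DMSO and SUM159 MBZ. SARS2 shares 1492 exonic bases on the same strand with ENSG00000269547, which was listed at 0 counts in all 4 libraries, so its level is uncertain.

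**Figure D1:**
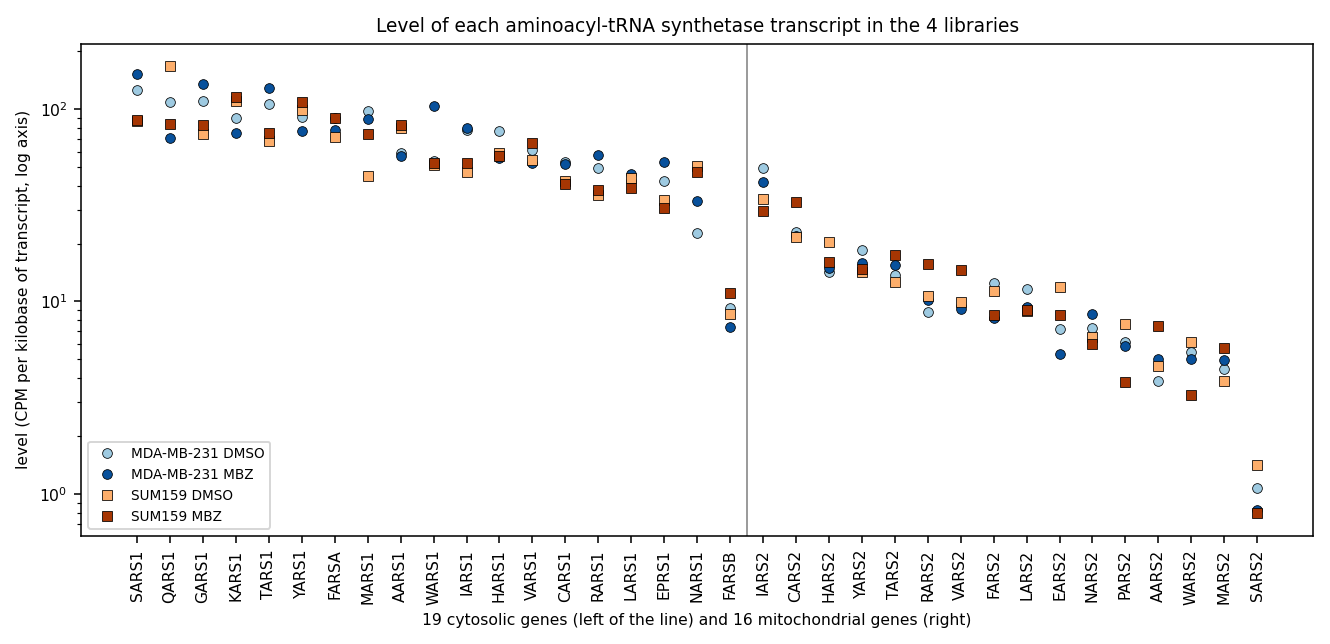
Level of each of the 35 transcripts in the 4 libraries, in CPM per kilobase on a log axis, with cytosolic genes left of the vertical line and mitochondrial genes right of it, 1 point per library. The cytosolic genes other than FARSB lie above nearly all mitochondrial genes, and SARS2 lies below every other gene.

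The synthetase genes as a whole held 0.396% of all counts in MDA-MB-231 with DMSO and 0.485% with MBZ, and 0.353% and 0.441% in SUM159. On the TMM scale their summed level went from 4343 to 4422 CPM in MDA-MB-231 and from 3915 to 3974 CPM in SUM159. The difference between these accounts is one of scale: dividing by total counts instead moved the median log2 fold change (log2FC) over all genes by 0.27 in MDA-MB-231 and by 0.30 in SUM159. All changes below are therefore relative to the bulk of genes. With total counts, 13 of the 20 members below 0 in MDA-MB-231 and 7 of the 14 below 0 in SUM159 were above 0.

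Most members differed little between MBZ and DMSO. In MDA-MB-231, 32 of 35 stayed within 1.5-fold, 1 was higher and 2 were lower, with 18.3% of 15142 genes higher and 15.8% lower. In SUM159, 28 of 35 stayed within 1.5-fold, 3 were higher and 4 were lower, with 21.5% of 15674 genes higher and 21.7% lower. With total counts MDA-MB-231 had 4 members higher and 0 lower, beside 29.1% and 7.57% of genes, and SUM159 had 10 higher and 3 lower, beside 32.8% and 12.8%. At a 2-fold limit 0 members were changed in MDA-MB-231 beside 14.2% of genes, and in SUM159 PARS2 alone was, beside 23.4%. Counted either way, 8.57% of members were changed in MDA-MB-231 beside 34.0% of genes, and 20% in SUM159 beside 43.2%. At a mean of 100 counts or more, where 34 of the 35 members lie, the shares of all genes were 25.7% and 34.2%. Only QARS1 was past 1.5-fold in both lines. With total counts QARS1 was no longer past it in MDA-MB-231, and AARS2 was the member past it in both, at log2FCs of 0.65 and 0.98.

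Each line had 1 library per condition, so no test could be run within a line. The intervals given are 95% Clopper-Pearson intervals on a gene's reads in the 2 libraries, which cover counting error only. Bulk RNA cannot tell a change in every cell from a change in the make-up of the culture. Reads copied by PCR are not independent molecules, and the spread between cultures is unknown. By these intervals, 12 members were above 0 and 13 below in MDA-MB-231, beside 30.5% and 35.3% of genes. In SUM159, 15 were above and 11 below, beside 31.5% and 37.0%. The shares of all genes include genes with few counts, whose intervals are wider.

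**Figure D2:**
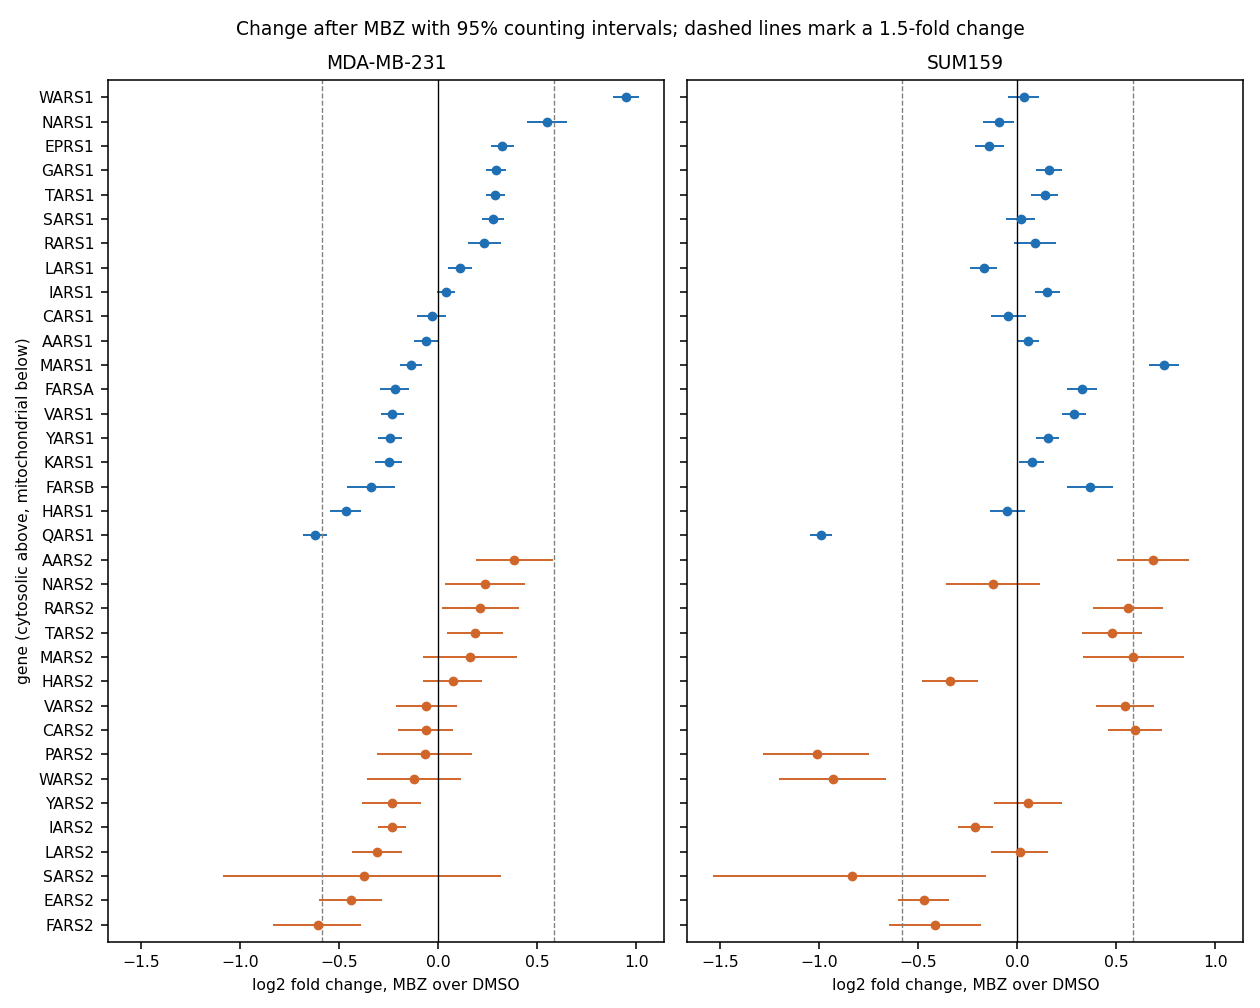
Log2FC of MBZ over DMSO for each of the 35 genes in MDA-MB-231 (left) and SUM159 (right), with cytosolic genes in blue and mitochondrial genes in orange, bars for 95% counting intervals and dashed lines at 1.5-fold. WARS1 stands out above in MDA-MB-231, QARS1 lies below in both lines, and PARS2, WARS2 and SARS2 lie below in SUM159.

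QARS1 (ENSG00000172053, chr3:49095932-49105130, 24 exons), the cytosolic glutaminyl enzyme and a member of the multisynthetase complex, was lower after MBZ in both lines. It had 6031 counts under DMSO and 3248 under MBZ in MDA-MB-231, and 6882 and 4311 in SUM159. As levels these were 266 and 173 CPM, and 408 and 205 CPM. The MBZ library was the lower of each pair, and it was 1.54-fold lower in MDA-MB-231 (log2FC -0.62, interval -0.68 to -0.56) and 1.99-fold lower in SUM159 (-0.99, interval -1.05 to -0.94). With total counts it stayed below 0, at -0.35 in MDA-MB-231, which is inside 1.5-fold, and at -0.69 in SUM159. Its exons share 61 bases with MIR6890.

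WARS1 (ENSG00000140105, chr14:100333790-100376805, 11 exons), the cytosolic tryptophanyl enzyme and a gene induced by interferon gamma, was the highest member in MDA-MB-231. It had 3213 counts under DMSO and 5133 under MBZ there, or 142 and 273 CPM, a 1.93-fold higher level (log2FC 0.95, interval 0.88 to 1.01), which lay above 90.3% of genes. In SUM159 it had 2279 and 2899 counts, or 135 and 138 CPM, and the log2FC of 0.03 (interval -0.05 to 0.11) could not be told from 0 at this depth. The 3 libraries other than MDA-MB-231 with MBZ lay close together. Exons of ENSG00000258666 on the other strand share 385 bases with WARS1, and that gene had 0 counts in each library.

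MARS1 (ENSG00000166986, chr12:57475445-57517569, 21 exons), the cytosolic methionyl enzyme, was the highest member in SUM159. It had 2103 counts under DMSO and 4376 under MBZ there, or 125 and 209 CPM, a 1.67-fold higher level (log2FC 0.74, interval 0.67 to 0.82). In MDA-MB-231 it had 6198 and 4662 counts, or 273 and 248 CPM, a log2FC of -0.14 (interval -0.19 to -0.08). The SUM159 library with DMSO was the low one of the 4. MARS1 shares exonic bases on the other strand with ARHGAP9, which had 6 to 18 counts, and with the stress gene DDIT3, whose own counts are given further on. Whether the counting used the strand is not given in the sources used here.

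NARS1 (ENSG00000134440, chr18:57600656-57622213, 14 exons), the cytosolic asparaginyl enzyme, was second to WARS1 in MDA-MB-231 and stayed just inside 1.5-fold. It had 1419 counts under DMSO and 1720 under MBZ in MDA-MB-231, or 62.5 and 91.5 CPM, a 1.46-fold higher level (log2FC 0.55, interval 0.45 to 0.65). In SUM159 it had 2348 and 2737 counts, or 139 and 130 CPM, a log2FC of -0.10 (interval -0.18 to -0.02). Both SUM159 libraries were above both MDA-MB-231 libraries.

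The other cytosolic genes at the ends of the range moved by less. HARS1, the histidyl enzyme, had 3381 counts under DMSO and 2025 under MBZ in MDA-MB-231, or 149 and 108 CPM, a log2FC of -0.47 (interval -0.55 to -0.39). In SUM159 it had 1936 and 2326 counts, or 115 and 111 CPM, and -0.05 (interval -0.14 to 0.04) could not be told from 0. Its exons share 1090 bases with WDR55 and 108 with HARS2, both on the other strand, so its value is uncertain. EPRS1 had 4661 and 4828 counts in MDA-MB-231, or 205 and 257 CPM, a log2FC of 0.32 (interval 0.26 to 0.38). In SUM159 it had 2753 and 3107 counts, or 163 and 148 CPM, a log2FC of -0.14 (interval -0.22 to -0.07).

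FARSA had 3710 and 2639 counts in MDA-MB-231, or 163 and 140 CPM, a log2FC of -0.22 (interval -0.29 to -0.15), and 2195 and 3426 in SUM159, or 130 and 163 CPM, a log2FC of 0.33 (interval 0.25 to 0.40). FARSB, which encodes the other subunit of the same enzyme, had 1425 and 933 counts in MDA-MB-231, or 62.8 and 49.6 CPM, a log2FC of -0.34 (interval -0.46 to -0.22), and 978 and 1571 in SUM159, or 58.0 and 74.9 CPM, a log2FC of 0.37 (interval 0.25 to 0.48). The 2 subunit genes thus lay on the same side of 0 in each line, below in MDA-MB-231 and above in SUM159. With total counts this did not hold in MDA-MB-231, where FARSA was at 0.05 and FARSB at -0.07. LARS1, the leucyl enzyme, had 4587 and 4101 counts in MDA-MB-231, or 202 and 218 CPM, a log2FC of 0.11 (interval 0.05 to 0.17). In SUM159 it had 3508 and 3880 counts, or 208 and 185 CPM, a log2FC of -0.17 (interval -0.24 to -0.10).

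The 12 ATF4-responsive genes had a median log2FC of 0.19 in MDA-MB-231, with 8 above 0 and 4 below, and of 0.04 in SUM159, again with 8 above and 4 below. The 7 other cytosolic genes had a median of -0.25 in MDA-MB-231, where RARS1 alone was above 0, and of 0.09 in SUM159, where QARS1 and HARS1 alone were below. The medians of all genes compared were -0.02 and -0.03. With total counts the medians in MDA-MB-231 were 0.46 for the 12 genes and 0.02 for the 7, and in SUM159 0.34 and 0.39. By counting intervals, 7 of the 12 were above 0 and 2 below in MDA-MB-231, and 1 of the 7 was above and 6 were below, beside 30.5% of all genes above and 35.3% below. In SUM159 the 12 divided into 5 above and 3 below and the 7 into 4 above and 1 below, beside 31.5% and 37.0% of all genes. These shares include genes with few counts, whose intervals are wider, and no share at matched depth was computed.

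Cytosolic genes with and without a match to TGATGNAA overlapped in their changes. Cytosolic genes with a match had a median log2FC of 0.04 in MDA-MB-231 and 0.14 in SUM159, and the 9 with a promoter but no match had -0.22 and 0.03. The 7 with a match ran from -0.14 for MARS1 to 0.55 for NARS1 in MDA-MB-231. WARS1 at 0.95, EPRS1 at 0.32 and SARS1 at 0.28 in MDA-MB-231 had no match in any annotated window.

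The multisynthetase complex holds a set of cytosolic synthetases together on 3 scaffold proteins. Its 7 listed synthetase genes, EPRS1, IARS1, LARS1, MARS1, QARS1, RARS1 and KARS1, had medians of 0.04 in MDA-MB-231 and 0.07 in SUM159, and they include QARS1 and MARS1, the lowest and the highest cytosolic gene in SUM159. The 12 cytosolic genes outside the complex had medians of -0.05 and 0.10. Of the scaffold genes, AIMP1 and AIMP2 lay between -0.23 and 0.11 in both lines. EEF1E1 went from 61 to 154 counts in SUM159, a log2FC of 1.02 (interval 0.58 to 1.47), and MDA-MB-231 had 180 and 170 counts, 0.19 (interval -0.12 to 0.50). The synthetases also fall into 2 classes by the fold of their catalytic domain. The 19 class I genes had medians of -0.06 and 0.05 in MDA-MB-231 and SUM159 and the 16 class II genes 0.01 and 0.04.

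The mitochondrial genes had medians near those of all genes, -0.06 in MDA-MB-231 and -0.06 in SUM159, but spread more widely in SUM159. The SD of their log2FCs was 0.28 in MDA-MB-231 and 0.58 in SUM159, beside 0.38 and 0.33 for cytosolic genes. These SDs run over genes, which differ in depth. The median mitochondrial gene had a mean of 588 counts and the median cytosolic gene 4019.

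AARS2 (ENSG00000124608, chr6:44298731-44313347), the mitochondrial alanyl enzyme, was the highest mitochondrial gene in both lines. It had 420 and 454 counts in MDA-MB-231, or 18.5 and 24.2 CPM, and 374 and 748 in SUM159, or 22.2 and 35.6 CPM. The log2FCs were 0.38 (interval 0.19 to 0.58) and 0.68 (interval 0.50 to 0.87), so the MBZ library was the higher of each pair, and with total counts both were past 1.5-fold.

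CARS2 (ENSG00000134905), the cysteinyl enzyme, had 672 and 1262 counts in SUM159, or 39.9 and 60.1 CPM, and was 1.51-fold higher (log2FC 0.59, interval 0.46 to 0.73). In MDA-MB-231 it had 957 and 759 counts, or 42.2 and 40.4 CPM, a log2FC of -0.06 (interval -0.20 to 0.08). It lay just past the 1.5-fold limit in SUM159. MARS2, the methionyl enzyme, with 196 and 366 counts there, or 11.6 and 17.4 CPM, lay just inside it with a log2FC of 0.58 (interval 0.33 to 0.84). In MDA-MB-231 MARS2 had 306 and 283 counts, or 13.48 and 15.05 CPM, a log2FC of 0.16 (interval -0.08 to 0.40).

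RARS2, the arginyl enzyme, came next in SUM159. It had 403 counts under DMSO and 739 under MBZ there, or 23.9 and 35.2 CPM, a log2FC of 0.56 (interval 0.38 to 0.74). In MDA-MB-231 it had 447 and 429 counts, or 19.7 and 22.8 CPM, a log2FC of 0.21 (interval 0.02 to 0.41). The SUM159 library with MBZ was the high one of the 4. VARS2 and TARS2, the valyl and threonyl enzymes, were at 0.54 and 0.48 in SUM159 and at -0.06 and 0.18 in MDA-MB-231. VARS2 shares 4073 exonic bases with ENSG00000288473 on the same strand, a gene that has no line in the count table.

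PARS2 (ENSG00000162396, chr1:54756898-54764523), the mitochondrial prolyl enzyme, was the lowest member in SUM159. It had 305 counts under DMSO and 188 under MBZ, or 18.1 and 9.0 CPM, and was 2.02-fold lower (log2FC -1.01, interval -1.28 to -0.75). In MDA-MB-231 it had 329 and 260 counts, or 14.5 and 13.8 CPM, a log2FC of -0.07 (interval -0.31 to 0.17). WARS2 (ENSG00000116874), the tryptophanyl enzyme, had the same form, with 291 and 190 counts in SUM159, or 17.3 and 9.1 CPM, 1.91-fold lower (log2FC -0.93, interval -1.20 to -0.66). In MDA-MB-231 WARS2 had 347 and 264 counts, or 15.3 and 14.0 CPM, a log2FC of -0.12 (interval -0.36 to 0.11). For both genes the SUM159 library with MBZ was the lowest of the 4 by CPM. SARS2, the seryl enzyme with the few counts given above, or 2.1, 1.6, 2.7 and 1.5 CPM in the same order, was at -0.84 (interval -1.54 to -0.16) in SUM159 and -0.37 (interval -1.09 to 0.32) in MDA-MB-231.

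FARS2 (ENSG00000145982, chr6:5261044-5829192), the single-chain mitochondrial phenylalanyl enzyme, was the lowest mitochondrial gene in MDA-MB-231. It had 477 and 259 counts there, or 21.0 and 13.8 CPM, and was 1.52-fold lower (log2FC -0.61, interval -0.83 to -0.39). In SUM159 it had 320 and 299 counts, or 18.99 and 14.25 CPM, a log2FC of -0.41 (interval -0.65 to -0.18). EARS2, the glutamyl enzyme, which also charges the mitochondrial glutamine transfer RNA before an amidotransferase converts it, had 854 and 521 counts in MDA-MB-231, or 37.6 and 27.7 CPM, a log2FC of -0.44 (interval -0.60 to -0.28). In SUM159 EARS2 had 1037 and 930 counts, or 61.5 and 44.3 CPM, a log2FC of -0.47 (interval -0.60 to -0.34). NARS2, the asparaginyl enzyme, had 415 and 405 counts in MDA-MB-231, or 18.3 and 21.6 CPM, a log2FC of 0.24 (interval 0.04 to 0.44). In SUM159 NARS2 had 277 and 317 counts, or 16.4 and 15.1 CPM, and -0.12 (interval -0.36 to 0.12) could not be told from 0.

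The list holds 15 pairs of a cytosolic gene and the mitochondrial gene for the same amino acid, with FARSA and FARSB each set beside FARS2. On the TMM scale, in each line 8 pairs lay on the same side of 0 and 7 on opposite sides. The counting intervals of the 2 genes overlapped for 7 pairs in MDA-MB-231 and for 4 in SUM159. No share was computed for pairs of other genes, so these counts are only listed. The sides depend on the scaling. With total counts 7 members were below 0 in MDA-MB-231 and 7 in SUM159, and the pairs were not counted on that scale. The pairs for asparagine, arginine, threonine, valine and tyrosine were on the same side in both lines. YARS1 and YARS2, the tyrosyl enzymes, were at -0.24 and -0.23 in MDA-MB-231 and at 0.15 and 0.05 in SUM159. For tryptophan, WARS1 was at 0.95 and WARS2 at -0.12 in MDA-MB-231, and at 0.03 and -0.93 in SUM159, so the level per kilobase of WARS1 over that of WARS2 went from 9.78 to 20.5 and from 8.27 to 16.1. For cysteine, the ratio of CARS1 to CARS2 was 2.31 and 2.36 in MDA-MB-231 and went from 1.95 to 1.25 in SUM159. For methionine, MARS1 and MARS2 both were above 0 in SUM159, at 0.74 and 0.58, and the ratio was 11.6 and 12.9, while in MDA-MB-231 they were at -0.14 and 0.16. For phenylalanine, FARSA and FARSB were above 0 in SUM159 and FARS2 below, and in MDA-MB-231 all 3 were below 0, at -0.22, -0.34 and -0.61.

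Between the lines, 16 of the 35 members had log2FCs of opposite sign, which is 45.7% beside 43.7% of 13733 genes. They were 10 of the 19 cytosolic and 6 of the 16 mitochondrial genes. With total counts 6 members had opposite signs, 17.1% beside 39.5% of genes, and FARSB, HARS2 and LARS2 had them under both scalings. On the TMM scale HARS2 in MDA-MB-231, at 0.07 (interval -0.07 to 0.22), could not be told from 0. Nor could LARS2 in SUM159, at 0.01 (interval -0.13 to 0.15). By counting intervals, 6 were below 0 in MDA-MB-231 and above 0 in SUM159 (FARSA, FARSB, KARS1, MARS1, VARS1 and YARS1), which is 17.14% of members beside 10.6% of the same genes. The reverse held for EPRS1, LARS1 and NARS1, 8.57% of members beside 9.40% of genes. All 9 are cytosolic, the compartment with the higher counts and so the narrower intervals. With total counts FARSB alone of these 9 kept opposite signs, at -0.07 in MDA-MB-231, near 0, and 0.67 in SUM159. Counting intervals were not computed on that scale. The other 5 of the first set moved above 0 in MDA-MB-231, and all 3 of the second above 0 in SUM159. MARS1, YARS1, EPRS1, LARS1 and NARS1 belong to the ATF4-responsive group and the other 4 do not. The difference between the lines could not be tested with 1 library per condition. GARS1, TARS1, AARS2, RARS2 and TARS2 were above 0 in both lines by their intervals, and QARS1, EARS2, FARS2 and IARS2 were below in both. The share of all genes with such same-side intervals was not computed, so these members are only listed. With total counts IARS2 was above 0 in both lines, at 0.03 in MDA-MB-231 and 0.09 in SUM159.

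**Figure D3:**
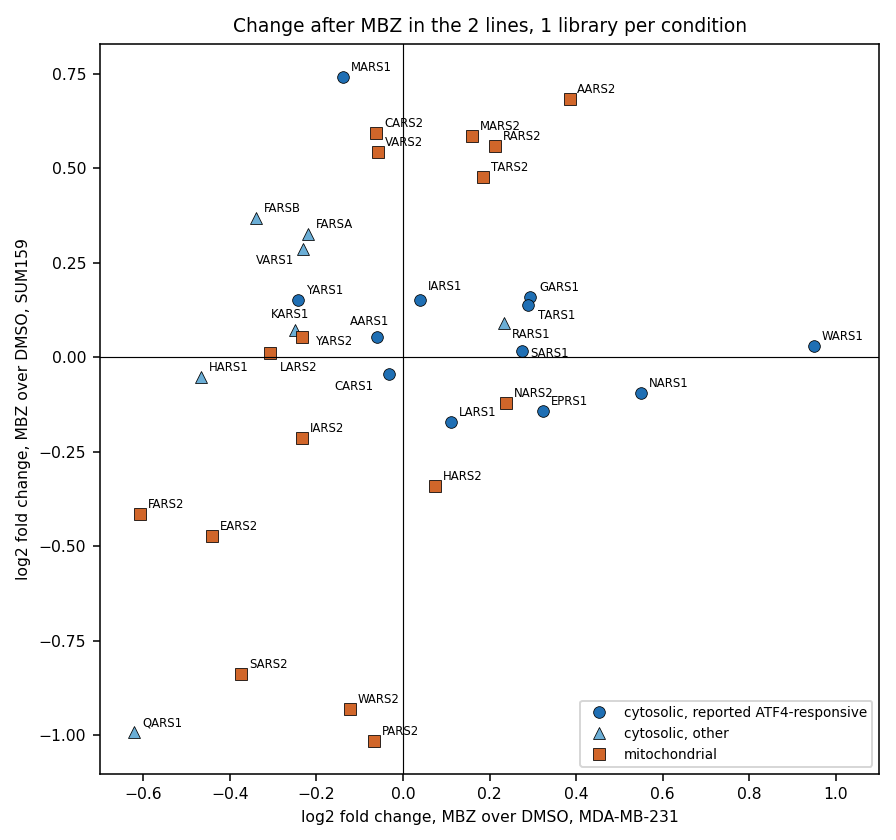
Log2FC of MBZ over DMSO in MDA-MB-231 (horizontal) against SUM159 (vertical), 1 point per gene, with circles for cytosolic genes reported to respond to ATF4, triangles for other cytosolic genes and squares for mitochondrial genes. WARS1 lies far right near 0 on the vertical axis, MARS1 lies high and left of 0, and QARS1 lies low in both lines.

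The lines differed in proliferation genes as well. The 10 examined had a median log2FC of -1.09 in MDA-MB-231, where all 10 were below 0, and of 2.64 in SUM159, where all 10 were past 1.5-fold higher. They ran from PLK1 at -1.34 to AURKA at -0.35 in MDA-MB-231 and from TOP2A at 1.28 to PLK1 at 2.92 in SUM159. MKI67, the gene of the Ki-67 marker, named here after its values were seen, stood at 717 and 317 CPM in MDA-MB-231 and at 52.5 and 276 in SUM159, so the SUM159 library with DMSO was the low one of the 4. Their part in the synthetase values was not tested.

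A change alike in both lines was tested with edgeR's quasi-likelihood test over all 16100 genes that passed its filter, with cell line in the model and the lines standing in for replicates. All 35 members passed the filter. At a Benjamini-Hochberg adjusted p under 0.05 the test called 0 members, beside 0.00621% of genes, and DESeq2's Wald test called 0 members beside 0.706% of the 13603 genes to which it gave an adjusted p. At an unadjusted p under 0.05 each found 1 member, beside 7.14% of genes for edgeR and 5.53% for DESeq2. In both this was QARS1, in edgeR with a log2FC of -0.77 (SE 0.32, n = 2 lines, lower in both), an unadjusted p of 0.0465 and an adjusted p of 0.691 in edgeR's quasi-likelihood test. AARS2 followed at 0.57 (SE 0.31), with an adjusted p of 0.741 in the same edgeR test. The design has little power, since its error term comes from how far the 2 lines responded unlike each other.

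Genes of the stress response reached larger changes than any synthetase in either line. Of 17 genes of the integrated stress response, 9 were at least 1.5-fold higher and 1 lower in MDA-MB-231, with a median log2FC of 1.03. In SUM159, 4 were higher and 2 lower, with a median of -0.05. These counts and those of the lists that follow are at 1.5-fold, beside 18.3% of all genes higher and 15.8% lower in MDA-MB-231 and 21.5% and 21.7% in SUM159. The 4 of 17 in SUM159 are close to that share. DDIT3, which encodes the transcription factor CHOP, had 255 and 1613 counts in MDA-MB-231 and 179 and 590 in SUM159, log2FCs of 2.93 and 1.40. ATF3, another stress-induced factor, was highest on the list in both lines, at 4.11 and 2.35. The transcript of ATF4, whose protein is mainly set by translation, was at 0.06 in MDA-MB-231 and -0.51 in SUM159. At the lower end stood ATF5 at -0.68 in MDA-MB-231 and NUPR1 at -0.92 in SUM159.

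Among amino acid synthesis genes, 2 of 12 compared were higher in MDA-MB-231, close to the share of all genes, and 4 of 13 were higher and 1 lower in SUM159. CTH, which makes cysteine from cystathionine, was highest in both, at 2.72 and 1.53. The lowest were ALDH18A1, which acts in proline synthesis, at -0.40 in MDA-MB-231, and CBS, which makes cystathionine, at -0.79 in SUM159 from 39 and 28 counts. ASNS, the asparagine synthetase and a standard ATF4 target, had only 36 and 77 counts in MDA-MB-231 and 19 and 56 in SUM159, log2FCs of 1.37 (interval 0.78 to 1.98) and 1.24 (interval 0.47 to 2.08). Of 10 amino acid transporters compared, 4 were higher in MDA-MB-231, and 1 was higher and 2 were lower in SUM159. SLC3A2, the heavy chain of several exchangers, was highest in both, at 1.75 and 0.74. SLC7A5, its partner in a leucine exchanger, was lowest in MDA-MB-231 at -0.14, and SLC43A1 was lowest in SUM159 at -1.37. Beside these values, 11 of the 12 ATF4-responsive synthetases stayed within 1.5-fold in each line, all but WARS1 in MDA-MB-231 and all but MARS1 in SUM159.

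Elongation factors for cytosolic translation were mostly below 0. All 5 that could be compared were below 0 in MDA-MB-231, beside 7743 of 15142 genes, with a median of -0.51. Only 1 of them, EEF2, was past 1.5-fold lower there. In SUM159, 4 of 5 were past 1.5-fold lower, with a median of -0.92. With total counts these medians were -0.25 and -0.62. EEF2, which moves the ribosome along, was lowest in both lines, at -0.62 and -1.42. EEF1A1, which brings charged transfer RNA to the ribosome, was nearest to 0 in MDA-MB-231 at -0.23. EIF5A was the exception in SUM159 at 0.52, and EEF1G was listed at 0 counts in all 4 libraries.

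Of the 13 genes for mitochondrial translation factors and the amidotransferase, 2 were higher in MDA-MB-231 and 1 was higher and 1 lower in SUM159, with medians of 0.13 and -0.20. MTIF2 was highest in MDA-MB-231 at 0.91 and the elongation factor gene TUFM lowest at -0.55, while in SUM159 MTRF1L was highest at 0.70 and GFM1 lowest at -0.59. The 78 mitochondrial ribosomal protein genes had medians of -0.02 and 0.21, with 2 higher and 6 lower in MDA-MB-231 and 13 higher and 3 lower in SUM159. They ran from MRPL37 at -0.76 to MRPS24 at 2.49, from 7 counts to 33, in MDA-MB-231, and from MRPL45 at -0.77 to MRPL53 at 1.32, from 18 counts to 56, in SUM159. The 6 genes for editing of mischarged transfer RNA and for selenocysteine had medians of 0.15 and 0.01. SEPSECS at 0.63 was highest and DTD1 at -0.37 lowest in MDA-MB-231, and DTD2 at -0.57 was lowest in SUM159. AARSD1, an editing protein for alanine, was highest in SUM159 at 2.58, from only 3 counts to 23.

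Since WARS1 responds to interferon gamma, 7 other genes that do were examined. In MDA-MB-231, 1 of 6 compared was past 1.5-fold higher, GBP1 at 0.60, GBP2 was lowest at -0.35, and the median was 0.33. In SUM159, 1 of 7 was lower, GBP2 at -1.97, IRF1 was highest at 0.25, and the median was -0.32. WARS1 at 0.95 was above the highest of them in MDA-MB-231.

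**Figure D4:**
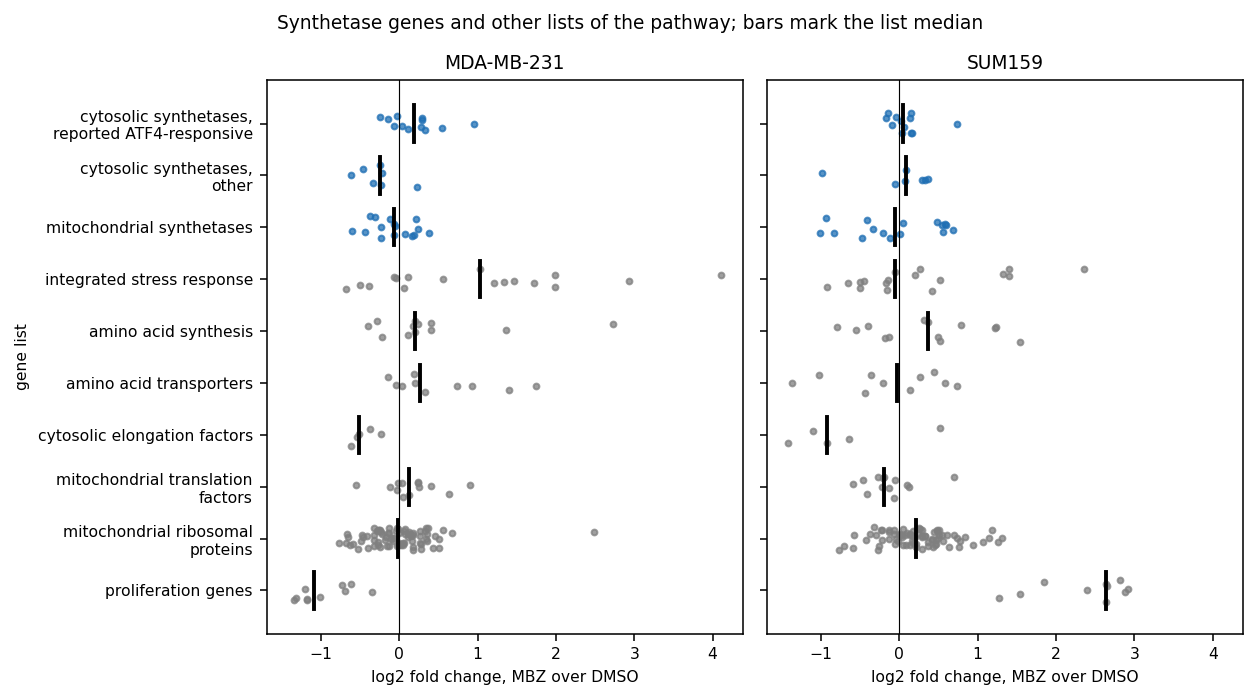
Log2FC of MBZ over DMSO for the genes of 10 lists in MDA-MB-231 (left) and SUM159 (right), 1 point per gene with a mean of at least 10 counts, synthetases in blue, other lists in grey, and a bar at each list's median. The synthetases lie near 0, while the stress response reaches 4.11 in MDA-MB-231 and the proliferation genes lie below 0 in MDA-MB-231 and above 0 in SUM159.

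The lines also differed before treatment. In the DMSO libraries, scaled over all 4 libraries, 13 of 19 cytosolic genes were lower in SUM159 than in MDA-MB-231, with a median log2 difference of -0.27, and 8 of 16 mitochondrial genes were lower, with a median of 0.05. The median of all genes was -0.01. At 1.5-fold, 3 members were higher in SUM159 and 2 lower, beside 31.0% and 30.6% of 15559 genes. NARS1 was the most different, at 61.0 CPM in MDA-MB-231 and 142 in SUM159, a log2 difference of 1.22 (interval 1.12 to 1.31). EARS2 at 0.77 and QARS1 at 0.68 were the others higher in SUM159. MARS1 was lower, at 267 CPM in MDA-MB-231 and 127 in SUM159, a log2 difference of -1.07 (interval -1.14 to -0.999), and IARS1 was at -0.66.

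The SUM159 library with DMSO was the extreme one of the 4 for each of these 5 genes, which were picked by a difference that includes it. On the same scale MARS1 had 267, 245, 127 and 212 CPM in MDA-MB-231 DMSO, MDA-MB-231 MBZ, SUM159 DMSO and SUM159 MBZ. QARS1 had 259, 171, 416 and 209 CPM in the same order, and EARS2 had 36.7, 27.4, 62.6 and 45.1 CPM. NARS1 had 61.0, 90.5, 142 and 133 CPM and IARS1 339, 353, 215 and 239 CPM. For NARS1 both SUM159 libraries lay above both MDA-MB-231 libraries, and for IARS1 both lay below. The SUM159 changes of these genes after MBZ rest on that library as well.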

How the data were processed

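Whole-number counts per gene, without normalization, were deposited for 4 libraries. The authors mapped paired reads of poly(A)-selected RNA to GRCh38 with STAR 2.5 and counted them with HTSeq 0.6.1 in union mode. The annotation release is not given in the sources used here, nor is the strand setting. Symbols, coordinates, transcript lengths and overlaps came from GENCODE release 44.

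Fold changes were differences of log2 CPM (edgeR 4.0.16 in R 4.3.3, prior count 0.125, TMM within a line). Calls needed a 1.5-fold change and a mean of at least 10 counts. The shared test was edgeR's quasi-likelihood test, with DESeq2 1.42.0 as alternative. Medians are over genes and carry no test. The functions were tested on simulated counts that changed alike in both lines and spread less than these data. How well the shared test works on these data was therefore not tested.

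The members and lists were chosen with earlier results of these data known. Full values were given for members past 1.5-fold in either line and for the 3 highest and 3 lowest of each compartment in each line. Of the other lists, the highest and lowest genes were named, with ATF4, DDIT3, ASNS and the scaffold genes.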

Additional observations from a re-analysis of the deposited data

Results flagged for a closer look

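For 9 cytosolic synthetases the counting intervals of the 2 lines lay on opposite sides of 0. The difference between the lines was not tested, since each condition had 1 library. Below 0 in MDA-MB-231 and above 0 in SUM159 cells were MARS1 with log2 fold changes of -0.14 and 0.74, FARSB with -0.34 and 0.37, FARSA with -0.22 and 0.33, VARS1 with -0.23 and 0.29, YARS1 with -0.24 and 0.15, and KARS1 with -0.25 and 0.072, which is 17.14% of members beside 10.6% of 13733 genes. Above 0 in MDA-MB-231 and below 0 in SUM159 cells were NARS1 with 0.55 and -0.10, EPRS1 with 0.32 and -0.14, and LARS1 with 0.11 and -0.17, which is 8.57% of members beside 9.40% of genes. With scaling by total counts FARSB alone of these 9 kept opposite signs, at -0.07 in MDA-MB-231, near 0, and 0.67 in SUM159 cells. Counting intervals were not computed on that scale.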

How the results depend on the processing

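With 1 library per condition no library could be left out. The shared test paired MBZ with DMSO within each line by its term for cell line, and without that term 0 members and 0 of 16100 genes were called. At a 2-fold limit 0 members were called in MDA-MB-231 and 1, PARS2, in SUM159 cells, and where only the counting interval had to leave out no change, 25 and 26 were. With total counts 13 were called in SUM159 cells, and the median log2 fold changes became 0.23 (cytosolic) and 0.20 (mitochondrial) in MDA-MB-231 and 0.37 and 0.25 in SUM159 cells. Medians of the baseline became -0.34 (cytosolic) and -0.023 (mitochondrial). DESeq2 size factors, TMM over 4 libraries and a prior count of 2 changed none of these counts past 1.5 times. The shared test called 0 members under each alternative, where DESeq2 called 41 genes higher and 55 lower, DESeq2 size factors in edgeR 1 higher, and the fit without a filter 153 higher and 145 lower of 32295. Single members at 1.5-fold rest on counts that have no replicate, and for SARS2 on fewer than 50 counts a library.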
